A study of Mus musculus with 24 samples.

Results

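Chromatin accessibility was described around 10 genes of the bHLH-PAS family and of the circadian feedback loop: Arnt, Arnt2, Hif1a, Epas1, Arntl, Clock, Npas2, Per1, Per2 and Per3. Their peaks were the consensus peaks that overlapped the gene body or the 20 kb on either side of it (mm10, GENCODE vM21 gene models). Each peak was given to the nearest of these 10 genes, even where a gene outside the set lay nearer. This rule, which used no measured value, found 191 of the 184158 consensus peaks of the series, and 185 of the 191 had counts high enough to be tested. The assay was ATAC-seq, which reads open chromatin from where a transposase inserts adapters, on mouse bone marrow-derived macrophages (BMDMs). The 24 libraries formed 4 groups of 6. The WT groups, unstimulated and LPS, came from C57/B6/J marrow. The AhR-KO groups, likewise unstimulated and LPS, came from marrow of the B6.129-Ahr tm1Bra/J strain, a constitutive knockout of the aryl hydrocarbon receptor AhR. In all 4 groups marrow was grown in RPMI with 10% FBS, 10 ng/ml GM-CSF and 2 ng/ml TGF-β, which gives cells that resemble alveolar macrophages. LPS, the bacterial lipopolysaccharide, was added at 97 EU/ml on day 6 for 24 h, and the calcium ionophore A23187 at 5 µM for the last 10 min. The labels attach the whole treatment, LPS included, to every library. The mice of the study were males and females 7 to 14 weeks old. Each group came from 6 animals in a single experiment, and since it is not settled whether the treatments shared animals, p-values measure the spread between these libraries. The AhR-KO allele was made in 129 cells, so DNA near Ahr on chromosome 12 may still be of 129 origin. Hif1a is the 1 of these genes on that chromosome, 38.4 Mb from Ahr. The time of day at which cells were harvested is not given in the sources used here.

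Proteins of the bHLH-PAS family bind DNA as pairs: a sensor or activator (class I) joins a general partner (class II). ARNT and ARNT2 are class II partners shared by AhR, by HIF-1α and by HIF-2α, and ARNTL (BMAL1) plays the same part for CLOCK and NPAS2. HIF-1α and HIF-2α, encoded by Hif1a and Epas1, are degraded in oxygen and drive the hypoxia response, and in macrophages HIF-1α is known for its role in the glycolytic and inflammatory response to LPS. In the clock, ARNTL with CLOCK or NPAS2 activates the Per and Cry genes, whose proteins then repress their own activators. Since these factors can compete for ARNT and bind related short motifs, the comparisons ask whether loss of AhR, a family member itself, went with changed chromatin at the genes of its relatives, in resting and in LPS-stimulated cells.

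Depth was the total count in consensus peaks, which ran from 8.54 to 34.6 M counts per library, with WT unstimulated replicate 5 the shallowest. Levels are given as CPM (counts divided by the TMM-scaled library size in M counts). The promoter peak of Ahr, the targeted gene, ran from 20.2 to 24.6 CPM in WT and from 11.5 to 15.1 CPM in AhR-KO unstimulated libraries, and from 18.99 to 22.2 and 11.9 to 16.8 CPM with LPS, so the genotypes did not overlap in either treatment. Of the macrophage markers, 7 of 8 had a promoter peak (Spi1, coding for PU.1, had none at an annotated start), as had 6 of 6 markers of alveolar macrophages. None of the 9 markers of mast cells, T cells and B cells had one. A promoter peak was present at 3 of 4 dendritic cell markers (Flt3, Zbtb46 and Ccr7, not Xcr1), 2 of 5 neutrophil markers (S100a8 and S100a9, not Ly6g, Elane or Mpo), 2 of 4 fibroblast markers (Pdgfra and Pdgfrb, not Col1a1 or Col3a1) and 2 of 3 epithelial markers (Epcam and Cdh1, not Sftpc). In a bulk library, fewer cells of a type and less accessibility per cell cannot be told apart.

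Sequences are shown for 7 intervals whose changes carry the results below, 300 bases around the middle of each peak, and for the 250 bases before a start of Hif1a, which held an E-box. They are RefSeq sequence of GRCm38.p6, the assembly behind mm10, and all are printed on the plus strand. Capitals mark matches to 5 short motifs on either strand: TNGCGTG (the core of the AhR:ARNT site), CACGTG (the E-box of CLOCK:ARNTL), ACGTG (the core of the HIF:ARNT site, which is also a piece of the E-box), TGANTCA (the AP-1 site) and TGACGTCA (the CRE site, added after the Hif1a sequence had been read).

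The first pair lies in Arntl, at chr7:113295117-113295416, in the interval that was lower in AhR-KO in both treatments, and at chr7:113224581-113224880, in an interval that was open in WT unstimulated cells above all. The former holds 29 bases of an exon of the predicted gene Gm45355 and a match to TNGCGTG at bases 164 to 170, where the capitals are its complement on the minus strand. The latter held none of the motifs.
Arntl +60.6 kb: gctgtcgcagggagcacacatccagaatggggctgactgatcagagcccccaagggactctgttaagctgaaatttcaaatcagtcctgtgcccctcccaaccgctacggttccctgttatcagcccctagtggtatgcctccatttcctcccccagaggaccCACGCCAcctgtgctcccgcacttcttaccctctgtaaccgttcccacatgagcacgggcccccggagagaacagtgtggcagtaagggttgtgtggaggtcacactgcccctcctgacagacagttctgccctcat
Arntl -9.9 kb: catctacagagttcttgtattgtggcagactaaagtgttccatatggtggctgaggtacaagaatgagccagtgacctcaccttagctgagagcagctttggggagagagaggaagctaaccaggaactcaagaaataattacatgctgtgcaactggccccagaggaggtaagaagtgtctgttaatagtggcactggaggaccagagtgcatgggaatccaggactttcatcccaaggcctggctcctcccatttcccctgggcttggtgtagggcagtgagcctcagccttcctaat

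The next pair lies in introns of Npas2, at chr1:39205296-39205595, and of Arnt2, at chr7:84341065-84341364, both lower in AhR-KO in both treatments. Each has an ACGTG, at bases 86 to 90 and 106 to 110, and the Arnt2 interval also has a TGANTCA at bases 82 to 88.
Npas2 +11.2 kb: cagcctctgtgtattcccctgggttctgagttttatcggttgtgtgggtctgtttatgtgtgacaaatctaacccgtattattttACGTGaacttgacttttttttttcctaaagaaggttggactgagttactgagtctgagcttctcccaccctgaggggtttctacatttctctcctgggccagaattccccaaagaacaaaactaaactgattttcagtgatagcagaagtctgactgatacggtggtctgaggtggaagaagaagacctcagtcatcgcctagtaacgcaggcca
Arnt2 +26.7 kb: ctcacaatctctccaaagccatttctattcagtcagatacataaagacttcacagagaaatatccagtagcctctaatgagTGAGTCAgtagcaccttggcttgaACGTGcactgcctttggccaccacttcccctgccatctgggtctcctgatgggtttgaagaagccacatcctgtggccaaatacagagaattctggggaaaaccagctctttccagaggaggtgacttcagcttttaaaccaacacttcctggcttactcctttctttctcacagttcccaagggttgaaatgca

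Of the intervals that were higher with LPS, Hif1a chr12:73888089-73888388 holds a TGACGTCA at bases 55 to 62, Per1 chr11:69102331-69102630 a pair of TGANTCA sites at bases 196 to 202 and 208 to 214, and Per2 chr1:91428566-91428865 a TGANTCA at bases 115 to 121.
Hif1a -13.1 kb: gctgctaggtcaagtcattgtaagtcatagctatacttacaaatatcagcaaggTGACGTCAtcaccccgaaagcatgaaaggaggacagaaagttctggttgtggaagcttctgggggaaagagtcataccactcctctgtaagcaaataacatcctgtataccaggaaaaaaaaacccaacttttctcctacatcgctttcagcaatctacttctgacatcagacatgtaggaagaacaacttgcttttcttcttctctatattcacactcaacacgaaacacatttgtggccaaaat
Per1 +2.0 kb: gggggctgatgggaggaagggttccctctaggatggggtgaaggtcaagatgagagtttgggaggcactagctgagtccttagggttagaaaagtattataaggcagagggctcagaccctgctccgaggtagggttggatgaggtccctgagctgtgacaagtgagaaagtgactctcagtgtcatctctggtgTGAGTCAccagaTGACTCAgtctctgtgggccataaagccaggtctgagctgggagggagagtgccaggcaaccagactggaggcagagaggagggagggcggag
Per2 +30.6 kb: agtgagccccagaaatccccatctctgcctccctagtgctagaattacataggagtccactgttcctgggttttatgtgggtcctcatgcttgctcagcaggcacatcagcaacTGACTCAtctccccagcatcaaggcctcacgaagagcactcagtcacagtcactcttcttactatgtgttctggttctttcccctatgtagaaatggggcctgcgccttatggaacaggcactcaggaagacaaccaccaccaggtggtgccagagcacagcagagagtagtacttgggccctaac

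The Hif1a promoter, chr12:73907617-73907866, holds a CACGTG at bases 116 to 121 and another ACGTG at bases 181 to 185.
Hif1a promoter: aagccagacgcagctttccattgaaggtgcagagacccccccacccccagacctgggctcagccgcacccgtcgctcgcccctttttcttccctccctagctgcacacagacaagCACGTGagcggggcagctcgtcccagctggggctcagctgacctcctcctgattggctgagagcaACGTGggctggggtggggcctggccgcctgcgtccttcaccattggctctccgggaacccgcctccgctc

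The 191 peaks were spread unevenly. Arnt2 had 32 peaks, Hif1a 30, Arntl 27, Npas2 25, Clock 21, Per3 13, Arnt 12, Epas1 11, and Per1 and Per2 10 each. By position, 13 covered a start of the gene, 102 lay in an intron, 21 over another exon, 20 upstream and 35 downstream. Because the flanks reach into neighbours, 17 of the 191 covered the start of another gene, among them Ctsk beside Arnt, Rpl31 beside Npas2, Vamp2 beside Per1, Ilkap and Hes6 beside Per2 and Vamp3 beside Per3. Others lay over the bodies of neighbours, such as Btbd10 beside Arntl, Tmem165 beside Clock, Tbc1d8 beside Npas2, and Vamp3 and Uts2 beside Per3. Every peak given to Per3 also overlapped the annotated body of Camta1. All are counted with the listed gene. The 6 peaks that were not tested belonged to Hif1a (4), Clock and Npas2 (1 each), and the counts given here are out of the 185 tested ones.

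Read per length, the promoter peaks of 8 of the 10 genes were wide open and those of Npas2 and Arnt2 weakly open. The Arntl promoter stood highest, at 49.8 CPM per kb over the 24 libraries (43.0 to 57.3). Those of Per3 (33.9), Hif1a (31.8), Per1 (30.4), Arnt (24.98), Per2 (23.6), Clock (23.1) and Epas1 (18.6) followed in CPM per kb. Npas2 had 3.08 CPM per kb (1.53 to 5.29) and Arnt2 1.28 CPM per kb (0.573 to 1.85). In this order each gene overlapped the next over its libraries, except that every library of Epas1, from 14.2 to 23.5 CPM per kb, lay above every library of Npas2. In the deposited broad peak lists the Arnt2 promoter was called as a peak in 5 of 24 libraries, and those of the other 9 genes in 24 of 24.

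**Figure D1:**
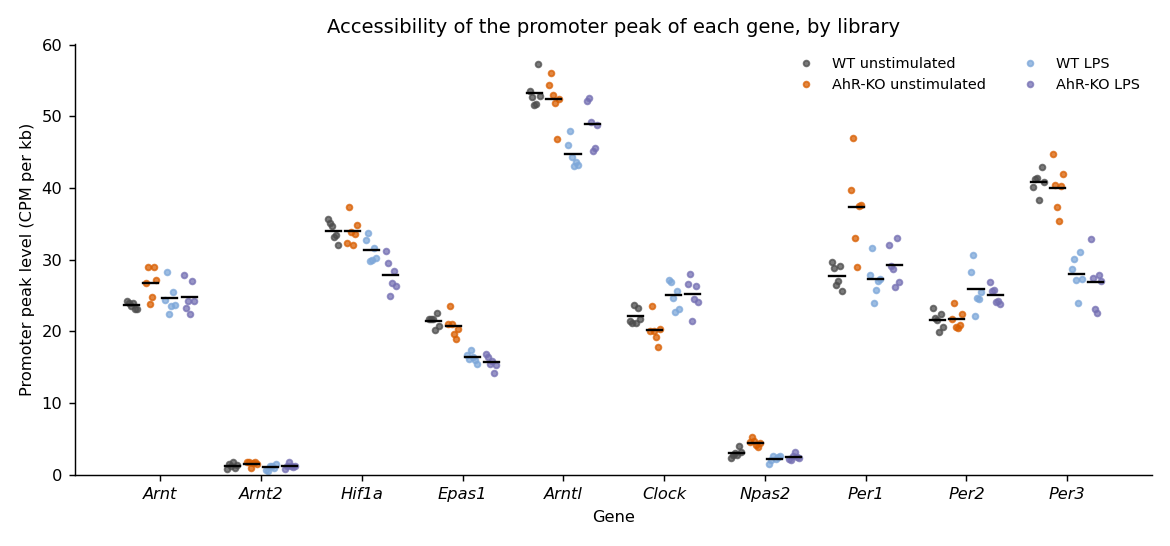
Level of the promoter peak of each gene in CPM per kb of peak (y axis), with a point per library, a colour per group and a bar at the mean of 6 libraries. Arntl lies between 43.0 and 57.3 in all 24 libraries, and Npas2 and Arnt2 lie at or below 5.29 in all of them.

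Genotype left these promoters within the fold threshold. Peaks were called differentially accessible regions (DARs) when they changed by 1.5-fold or more with adjusted p values up to 0.05, from edgeR quasi-likelihood tests adjusted by Benjamini-Hochberg over 174193 peaks. Of the 13 peaks over a start, 0 were DARs between AhR-KO and WT in unstimulated cells, where 3 had an unadjusted p under 0.05, DESeq2 called 1 and limma 0. With LPS 0 of 13 were DARs between genotypes as well, 2 having an unadjusted p under 0.05 and DESeq2 and limma calling 0. Among all peaks over a coding start, 6.22% and 6.99% were DARs in these comparisons. For LPS against unstimulated, 0 of 13 passed in WT (9 with an unadjusted p under 0.05, 0 by DESeq2 and by limma), where the share over all coding starts was 10.4%, and 1 of 13, the Npas2 promoter, passed in AhR-KO, against 15.9%. For the interaction (the log2 genotype difference in LPS cells less that in unstimulated cells), 0 of 13 passed (5 with an unadjusted p under 0.05, 0 by the other tools), against 3.60%.

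Away from the starts many intervals changed. Between AhR-KO and WT unstimulated cells, 39 of 185 peaks were DARs, 17 lower and 22 higher in AhR-KO, when 22.6% of all tested peaks were DARs (12.6% lower, 9.95% higher). That split of all peaks depends on scaling: with RLE size factors it was 19366 lower and 20676 higher, in place of 22015 and 17332. With DESeq2 and limma more of all peaks were higher than lower as well. The 6 libraries of each genotype did not overlap at 13 peaks that were lower and 25 that were higher, which compares with 11.3% lower and 9.78% higher among all tested peaks. With LPS, 36 peaks were DARs between genotypes, 12 lower and 24 higher, beside 26.5% of all peaks (13.1% and 13.4%), and 8 lower and 16 higher peaks did not overlap, beside 8.96% and 10.6%. The share for the 10 genes was 21.1% without LPS, near that of all peaks, and 19.5% with LPS, below that of all peaks. Neither difference was tested. A larger number moved with LPS: 83 in WT, 28 lower and 55 higher, beside 47.0% of all peaks (21.6% and 25.4%), and 88 in AhR-KO, 29 lower and 59 higher, beside 48.8% (21.5% and 27.3%). With quantile normalization and limma the split was 40 lower and 41 higher in WT, beside 26.1% and 22.1% of all peaks, and 42 and 49 in AhR-KO, beside 27.1% and 22.2%, so under it more of all peaks were lower than higher. That scaling moved the median of all peaks for LPS in AhR-KO from 0.05 to -0.10 (log2). The interaction gave 24 DARs, 11 lower and 13 higher, beside 10.4% of all peaks (4.58% and 5.83%). Its split over all peaks turned with RLE size factors, to 9574 lower and 8660 higher in place of 7985 and 10147. The counts per gene below are to be read beside these shares of all peaks, and none was tested against them.

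**Figure D2:**
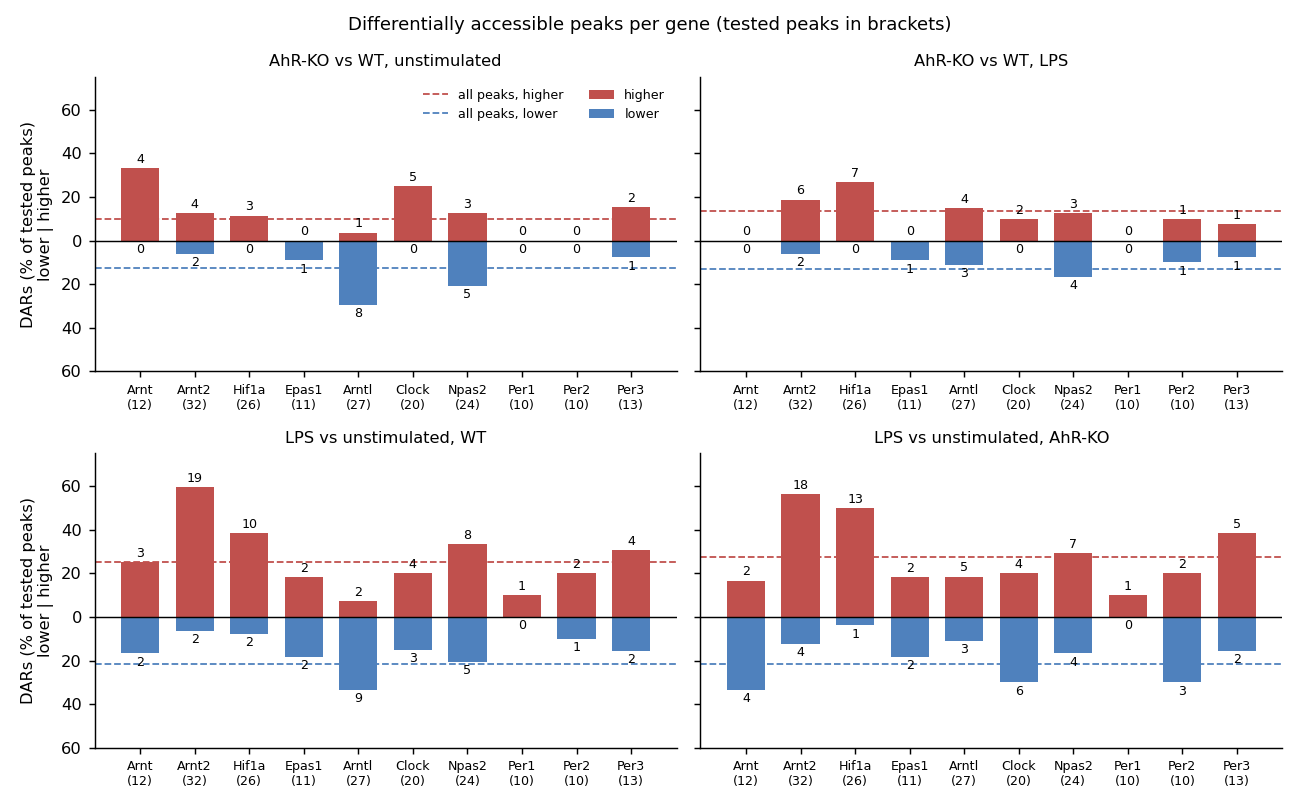
Share of the tested peaks of each gene (y axis, percent; higher drawn upward, lower downward) that were DARs in 4 comparisons, with the number of DARs at each bar and the share over all tested peaks as dashed lines. In unstimulated cells 8 DARs of Arntl were lower in AhR-KO and none of the DARs of Arnt, Hif1a and Clock was, while 19 and 18 peaks of Arnt2 were higher with LPS in WT and in AhR-KO.

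The median log2 fold change of the 185 peaks was 0.06 for genotype without LPS and 0.14 with it, beside -0.02 and 0.02 for all peaks. With RLE size factors the median of all peaks for genotype without LPS was 0.04. The summed level of the promoter peaks of 6 alveolar macrophage markers also moved with genotype, from 55.2 to 65.8 CPM in WT and from 78.1 to 96.2 CPM in AhR-KO unstimulated libraries, and from 48.1 to 59.3 and 56.9 to 71.9 CPM with LPS. That of 7 macrophage markers ran from 136 to 155 CPM and from 157 to 201 CPM in WT and AhR-KO unstimulated libraries, and from 121 to 136 and 114 to 155 CPM with LPS. The sum of the 3 dendritic cell markers overlapped between genotypes without LPS, at 25.7 to 34.5 CPM in WT and 26.6 to 32.5 CPM in AhR-KO, and with LPS was lower in AhR-KO without overlap, at 28.3 to 45.2 against 20.01 to 25.9 CPM. The sums of the 2 neutrophil, 2 fibroblast and 2 epithelial markers overlapped between genotypes in both treatments, within 13.8 to 27.7, 17.7 to 26.3 and 8.14 to 17.3 CPM. The part of these cell types in the genotype differences below was not tested.

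Arnt (chr3:95434388-95497240, plus strand) encodes the partner that AhR itself needs to bind DNA. Its promoter peak lay at 26.8–28.1 CPM (median 27.6) in WT and 27.6–33.6 CPM (median 31.2) in AhR-KO unstimulated libraries and was no DAR (log2 fold change 0.17 ± 0.06, adjusted p = 0.0285). In unstimulated cells 4 of 12 Arnt peaks were DARs, all higher in AhR-KO (33.3%, beside 9.95% of all peaks). With LPS 0 were DARs, although 4 had an unadjusted p under 0.05 and DESeq2 and limma called 0. The peak with the smallest p, chr3:95497330-95500488, lies just downstream of Arnt over the start of Ctsk, which encodes the protease cathepsin K, so it cannot be assigned to Arnt. It lay at 12.2–17.6 CPM (median 15.02) in WT and 22.1–34.4 CPM (median 29.7) in AhR-KO unstimulated libraries, without overlap (0.92 ± 0.13, adjusted p = 2.47e-06). With LPS it fell in AhR-KO to 8.98–17.3 CPM (median 13.3) (-1.12 ± 0.13, adjusted p = 1.78e-08), where WT had 8.05–12.8 CPM (median 10.2), and the genotypes overlapped. The interaction (-0.61, adjusted p = 0.0258) fell under 1.5-fold with limma (-0.57) and without any 1 of 6 libraries (AhR-KO LPS replicates 3 and 6, AhR-KO unstimulated replicate 2, WT LPS replicates 3 and 5, and WT unstimulated replicate 1), down to -0.55. The strongest LPS response near Arnt lay 18.2 kb beyond its end, at chr3:95515407-95515791. The nearest coding start to it is that of Ctss, so it cannot be assigned to Arnt. This interval lay at 0.462–1.63 CPM (median 1.10) and 1.03–1.65 CPM (median 1.23) in WT and AhR-KO unstimulated libraries and at 5.66–7.72 CPM (median 6.201) and 4.15–6.18 CPM (median 4.96) with LPS. Treated and untreated libraries did not overlap in either genotype (WT 2.70 ± 0.17, adjusted p = 2.63e-16; AhR-KO 1.97 ± 0.16, adjusted p = 1.34e-13). Its interaction, -0.73 with adjusted p = 0.0343, was lost without any 1 of 7 libraries (AhR-KO unstimulated replicates 1, 4 and 6, AhR-KO LPS replicate 6, WT unstimulated replicates 1 and 6, and WT LPS replicate 2), with values from -0.72 to -0.61.

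Arnt2 (chr7:84246278-84410176, minus strand), the second class II partner, is known mainly from neurons, and its promoter was the least open of the set. That peak lay at 0.726–1.61 CPM (median 1.12) in WT and 0.790–1.61 CPM (median 1.47) in AhR-KO unstimulated libraries, with no DAR in any comparison. Away from it, 19 of 32 peaks were higher with LPS in WT and 18 in AhR-KO, 16 of them shared, against 2 and 4 lower. The smallest p belonged to chr7:84241650-84242299, downstream of the gene. It lay at 2.44–4.90 CPM (median 3.38) in WT unstimulated and 14.6–21.1 CPM (median 17.6) in WT LPS libraries (2.31 ± 0.12, adjusted p = 3.75e-18). In AhR-KO the values were 3.24–5.69 CPM (median 4.34) and 20.03–22.2 CPM (median 21.3) (2.26 ± 0.11, adjusted p = 5.66e-19). The treatments did not overlap in either genotype, and the interaction was -0.04 ± 0.17 (SE). By genotype, 2 Arnt2 peaks were lower and 4 higher in unstimulated AhR-KO cells, and 2 and 6 in LPS cells. The intron interval chr7:84340915-84341516, whose sequence is shown above, was lower in AhR-KO in both treatments: it lay at 3.61–9.77 CPM (median 8.92) in WT and 2.06–3.73 CPM (median 2.87) in AhR-KO unstimulated libraries (-1.54 ± 0.17, adjusted p = 6.45e-09). Only the lowest WT library reached the AhR-KO range. With LPS, WT lay at 7.38–10.1 CPM (median 8.86) and AhR-KO at 4.19–6.41 CPM (median 5.497), without overlap (-0.70 ± 0.15, adjusted p = 2.34e-04), so the deficit was smaller (interaction 0.84 ± 0.22, adjusted p = 0.00924). A nearby intron interval, chr7:84335746-84336176, went the other way. It was higher in AhR-KO without LPS (0.62 ± 0.18, adjusted p = 0.00705), rose with LPS in both genotypes (1.92 in WT, 1.01 in AhR-KO) and had an interaction of -0.91 ± 0.23, adjusted p = 0.00577. The first of these values dropped under 1.5-fold without AhR-KO unstimulated replicate 1 or 6 or WT unstimulated replicate 1 or 4, with values as low as 0.53. Upstream of the promoter, chr7:84420666-84422091 was higher in AhR-KO with LPS (0.85 ± 0.13, adjusted p = 1.47e-06), at 5.05–8.11 CPM (median 7.34) against 2.71–4.99 CPM (median 3.81) in WT, without overlap.

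Hif1a (chr12:73901375-73947530, plus strand) encodes HIF-1α, the oxygen-regulated subunit of HIF-1. Its promoter peak, among the highest per kb, hardly moved between genotypes: 42.4–47.1 CPM (median 45.0) in WT and 42.3–49.4 CPM (median 44.5) in AhR-KO unstimulated libraries. With LPS it lay at 39.3–44.6 CPM (median 40.9) in WT and 32.9–41.3 CPM (median 36.5) in AhR-KO, lower than without LPS in AhR-KO by less than the fold threshold (-0.29 ± 0.05, adjusted p = 2.01e-05). The intervals around it opened with LPS: 10 of 26 tested peaks were higher in WT and 13 in AhR-KO, 9 of them shared, and 2 and 1 were lower. The DARs between genotypes were all higher in AhR-KO, 3 without LPS and 7 with it. These are 11.5% and 26.9% of the tested Hif1a peaks, beside 9.95% and 13.4% of all peaks, so the share without LPS is near that of all peaks. The interval chr12:73887753-73888726, 13.1 kb before the nearest start, led all 4 comparisons by p. It lay at 1.90–3.14 CPM (median 2.32) in WT unstimulated and 3.58–5.11 CPM (median 4.21) in AhR-KO unstimulated libraries. The LPS libraries lay at 8.78–10.7 CPM (median 10.2) in WT and 13.7–17.8 CPM (median 15.4) in AhR-KO. The 4 groups did not overlap, and the order was the same for all 6 libraries of each: WT unstimulated lowest, AhR-KO unstimulated next, and then the LPS groups of WT and AhR-KO. The log2 fold changes were 0.86 ± 0.12, adjusted p = 4.22e-07 for genotype without LPS, 0.63 ± 0.09, adjusted p = 4.61e-07 for genotype with LPS, 2.11 ± 0.11, adjusted p = 2.68e-18 for LPS in WT and 1.87 ± 0.10, adjusted p = 1.09e-18 for LPS in AhR-KO. The genotype value with LPS lies near the threshold and slipped under 1.5-fold, at 0.58, without AhR-KO LPS replicate 5. In the intron interval chr12:73931067-73931985 the genotype difference turned with treatment: AhR-KO had 0.956–1.41 CPM (median 1.10) against 1.29–2.21 CPM (median 1.48) in WT without LPS, and 1.69–2.47 CPM (median 2.12) against 1.06–1.76 CPM (median 1.53) with LPS. Both genotype differences stayed under 1.5-fold (-0.45 and 0.53), the ranges overlapped in both, and the interaction was 0.98 ± 0.22, adjusted p = 0.00238. MACS2 called it in 2 of 24 libraries, both AhR-KO LPS.

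Epas1 (chr17:86753700-86833410, plus strand) encodes HIF-2α, the other oxygen-regulated subunit. Its promoter peak fell with LPS in both genotypes by less than 1.5-fold: it lay at 41.8–46.9 CPM (median 45.1) in WT unstimulated and 32.2–36.03 CPM (median 33.8) in WT LPS libraries (-0.39 ± 0.05, adjusted p = 6.31e-08). In AhR-KO it lay at 39.4–48.8 CPM (median 42.9) and 29.5–34.8 CPM (median 32.6) (-0.40 ± 0.05, adjusted p = 2.56e-08), and in neither genotype did the treatments overlap. Of 11 peaks 1 was a DAR by genotype, the exon interval chr17:86824469-86825484, lower in AhR-KO in both treatments. With LPS it lay at 2.04–3.30 CPM (median 2.77) in WT and 0.529–1.44 CPM (median 0.993) in AhR-KO, without overlap (-1.43 ± 0.18, adjusted p = 6.84e-08). Without LPS it lay at 2.91–4.89 CPM (median 3.69) and 2.00–2.90 CPM (median 2.56), which just missed each other (-0.61 ± 0.17, adjusted p = 0.0036). This second value was under 1.5-fold with RLE, limma, DESeq2 and both blocked fits, with values from -0.58 to -0.50, and without WT unstimulated replicate 1 or 2 or AhR-KO unstimulated replicate 2. The interaction was -0.82 ± 0.25, adjusted p = 0.0217. The intron interval chr17:86789998-86790732 opened with LPS from 0.322–0.839 CPM (median 0.618) to 4.33–7.69 CPM (median 5.82) in WT (3.205 ± 0.24, adjusted p = 2.95e-13) and from 0.590–1.17 CPM (median 0.948) to 3.05–7.68 CPM (median 4.79) in AhR-KO (2.51 ± 0.22, adjusted p = 6.65e-12). MACS2 called it in 12 of 12 LPS libraries and 0 of 12 others.

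**Figure D3:**
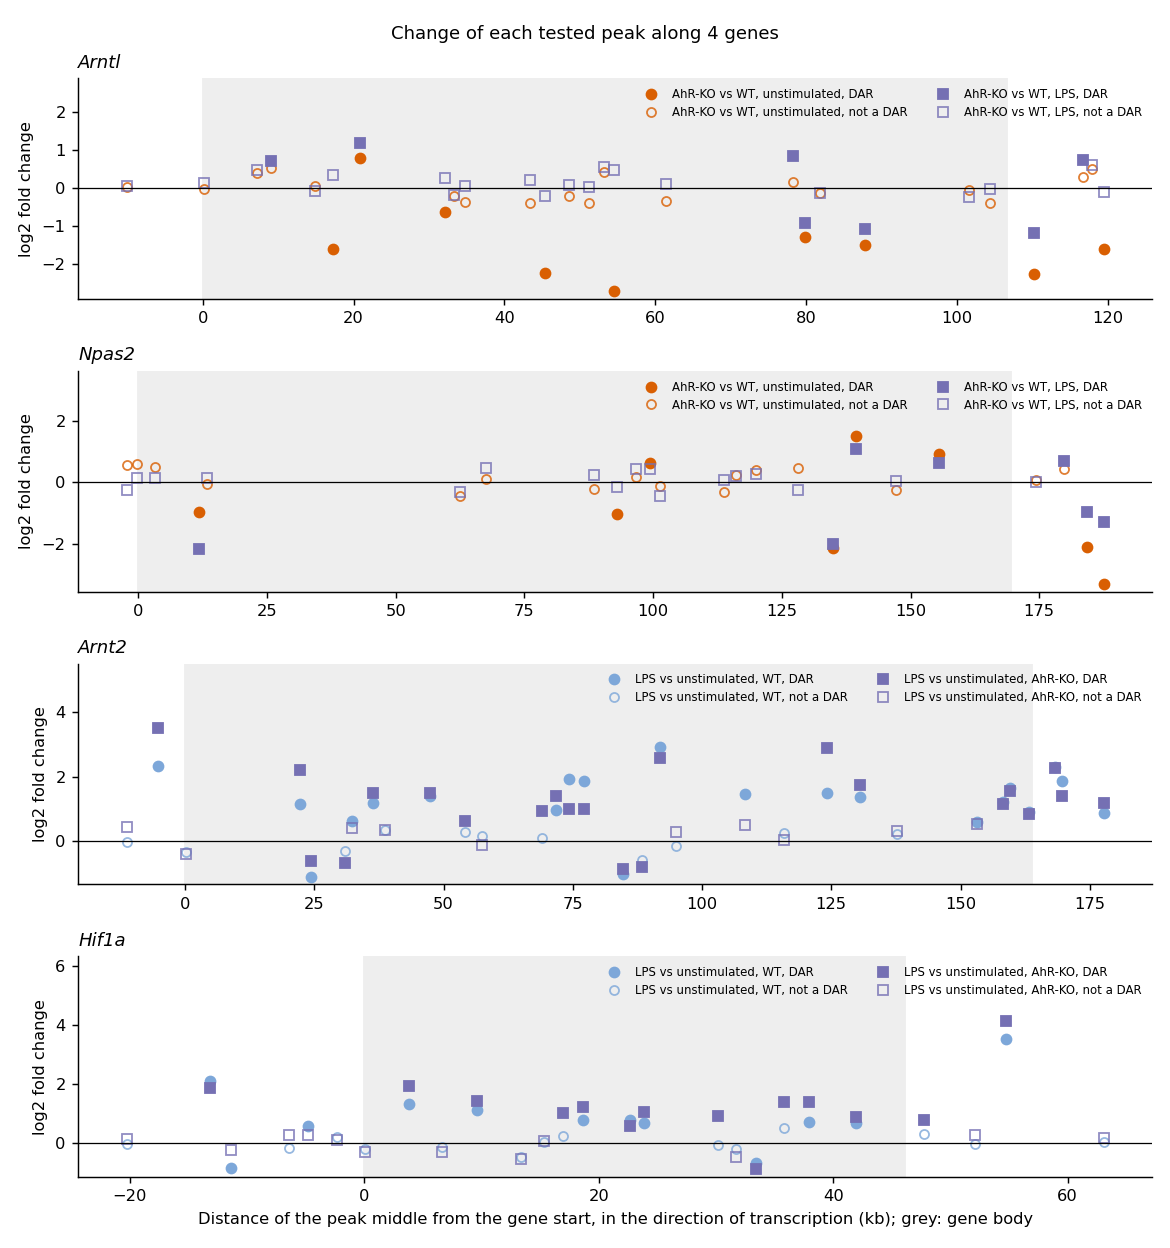
Log2 fold change (y axis) of each tested peak along 4 genes, against the distance in kb of the peak's middle from the gene's start in the direction of transcription (x axis); grey marks the gene body and filled symbols are DARs. The upper panels give genotype without and with LPS at Arntl and Npas2, and the lower ones LPS in WT and in AhR-KO at Arnt2 and Hif1a. At Arntl, 8 DARs without LPS lie below 0 and 3 with LPS do, and at Arnt2 19 and 18 DARs lie above 0.

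Arntl (chr7:113207465-113314126, plus strand) encodes BMAL1, the class II partner on which the clock depends. In unstimulated cells 8 of its 27 peaks were lower in AhR-KO and 1 higher (29.6% and 3.7%, beside 12.6% and 9.95% of all peaks). With LPS 3 were lower and 4 higher (11.1% and 14.8%), near the 13.1% and 13.4% of all peaks. Its promoter, the most open of the set, lay at 80.7–89.7 CPM (median 82.7) in WT and 73.4–87.7 CPM (median 82.5) in AhR-KO unstimulated libraries (-0.02 ± 0.05, adjusted p = 0.757), so the 8 lower intervals lay beside a promoter with no detectable difference between genotypes. The strongest of them by p was chr7:113294582-113295952, an interval over an exon of Arntl and the start of the predicted gene Gm45355, with the TNGCGTG shown above. It lay at 6.95–9.91 CPM (median 7.61) in WT and 2.28–4.003 CPM (median 2.55) in AhR-KO unstimulated libraries, with means of 8.08 ± 1.16 and 2.89 ± 0.707 CPM (SD, n = 6). After LPS the values were 5.20–6.59 CPM (median 5.48) in WT and 2.12–3.201 CPM (median 2.61) in AhR-KO. The genotypes did not overlap in either treatment (log2 fold change -1.49 ± 0.13, adjusted p = 2.00e-11 without LPS and -1.07 ± 0.13, adjusted p = 1.52e-08 with LPS), and the calls held under all alternatives. LPS itself moved it by -0.51 in WT and -0.09 in AhR-KO, under the threshold. A second interval over an exon, chr7:113287039-113287631, was lower both in AhR-KO and with LPS. It lay at 3.75–5.74 CPM (median 5.10) in WT unstimulated, 1.60–2.24 CPM (median 2.09) in AhR-KO unstimulated, 1.35–2.10 CPM (median 1.59) in WT LPS and 0.489–1.17 CPM (median 0.874) in AhR-KO LPS libraries. Its genotype values were -1.28 ± 0.15, adjusted p = 1.06e-08 without LPS and -0.92 ± 0.17, adjusted p = 4.84e-05 with LPS, and its LPS values -1.59 ± 0.15, adjusted p = 1.15e-11 in WT and -1.22 ± 0.18, adjusted p = 1.64e-07 in AhR-KO. Each of these 4 pairs of groups was free of overlap.

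A set of 3 calls (lower in AhR-KO without LPS, lower with LPS in WT, higher interaction) met in 6 of the 8 lower intervals of Arntl, and in 3 of these 6 all WT unstimulated libraries lay above all others. The intron interval chr7:113224435-113225027, 9.9 kb before the nearest start, lay at 2.68–5.94 CPM (median 4.92) in WT unstimulated libraries. In AhR-KO unstimulated libraries it lay at 1.10–1.73 CPM (median 1.58), and with LPS at 1.21–1.79 CPM (median 1.57) in WT and 1.38–2.58 CPM (median 2.01) in AhR-KO. All 6 WT unstimulated libraries lay above all others, and the other 3 groups overlapped. Genotype without LPS gave -1.61 ± 0.17, adjusted p = 9.65e-10 and LPS in WT -1.57 ± 0.16, adjusted p = 1.08e-10. Genotype with LPS gave 0.35 ± 0.17, adjusted p = 0.0916 and LPS in AhR-KO 0.39 ± 0.18, adjusted p = 0.0502, neither of them a DAR. The interaction was 1.95 ± 0.24, adjusted p = 6.48e-07, and it held under all alternatives. The 3 calls met in 7 of the 185 peaks, 6 of Arntl and 1 of Npas2, or 3.78%, and in 1.73% of all tested peaks. The comparisons share the WT unstimulated libraries, so the 3 calls are not separate evidence. Of the other 5 in Arntl, described here after their values were seen, chr7:113252670-113253071 had 2.28 ± 0.611 CPM in WT unstimulated against 0.485 ± 0.157, 0.502 ± 0.0789 and 0.430 ± 0.176 CPM in the other 3 groups (AhR-KO unstimulated, then WT and AhR-KO with LPS). Likewise chr7:113261950-113262109 had 1.04 ± 0.461 against 0.153 ± 0.0527, 0.170 ± 0.0436 and 0.237 ± 0.130 CPM. In the remaining 3 intervals WT unstimulated libraries overlapped others. Of these, chr7:113317374-113318117 and chr7:113326774-113327085 lie beyond the end of Arntl inside Btbd10 and cannot be assigned to Arntl. At chr7:113317374-113318117 they lay at 2.09–3.31 CPM (median 3.08), partly within the WT LPS range of 1.06 to 2.43 CPM, and AhR-KO was lower with LPS too (-1.18 ± 0.22, adjusted p = 3.29e-05). At chr7:113239343-113239777 WT unstimulated replicate 5, the shallowest library, was the lowest of all 24, and the highest was an AhR-KO unstimulated one: WT lay at 0.582–2.08 CPM (median 1.84) and AhR-KO at 0.782–2.11 CPM (median 0.961) without LPS (-0.63 ± 0.22, adjusted p = 0.0218). At chr7:113326774-113327085 these groups lay at 0.441–1.19 CPM (median 0.590) and 0.0787–0.541 CPM (median 0.201) (-1.59 ± 0.34, adjusted p = 2.34e-04). Of the Arntl peaks 2 were higher with LPS in WT and 5 in AhR-KO. The one with the smallest p in AhR-KO, chr7:113285359-113286024, rose from 0.319–0.487 CPM (median 0.393) to 1.27–3.16 CPM (median 1.99) with LPS (2.31 ± 0.23, adjusted p = 2.76e-11) and from 0.116–0.528 CPM (median 0.382) to 0.978–1.37 CPM (median 1.05) in WT (1.64 ± 0.26, adjusted p = 8.16e-07). It was higher in AhR-KO with LPS (0.83 ± 0.18, adjusted p = 3.21e-04), although the genotypes overlapped. The most open interval per kb outside the promoter, chr7:113260363-113261003, was no DAR: it lay at 6.09–7.86 CPM (median 7.02) in WT and 8.53–10.6 CPM (median 9.24) in AhR-KO unstimulated libraries, without overlap (0.43 ± 0.11, adjusted p = 0.00283).

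Clock (chr5:76209868-76304792, minus strand) encodes the class I partner of ARNTL and is expressed in most cells. The promoter peak lay at 38.6–43.4 CPM (median 39.5) in WT and 32.6–43.1 CPM (median 36.6) in AhR-KO unstimulated libraries, and at 41.3–49.7 CPM (median 45.9) and 39.2–51.2 CPM (median 46.5) with LPS; no comparison reached 1.5-fold. The genotype DARs of Clock were all higher in AhR-KO, 5 of the 20 tested peaks in unstimulated and 2 in LPS cells. Of those without LPS, the intervals from 76189555 and 76202248 lie downstream of Clock over Tmem165 and cannot be assigned to Clock. The intron interval chr5:76291989-76293064 lay at 4.95–8.49 CPM (median 6.83) in WT and 10.3–16.01 CPM (median 10.9) in AhR-KO unstimulated libraries, without overlap (0.84 ± 0.12, adjusted p = 9.59e-07). With LPS it fell to 2.18–3.16 CPM (median 2.63) in WT (-1.32 ± 0.14, adjusted p = 1.35e-10) and 2.57–4.56 CPM (median 3.74) in AhR-KO (-1.73 ± 0.13, adjusted p = 1.57e-14). The LPS groups lay below both unstimulated groups in every library, and between them the genotypes overlapped (0.44 ± 0.14, adjusted p = 0.0101). An exon interval, chr5:76216088-76217198, was higher in AhR-KO with LPS (0.75 ± 0.19, adjusted p = 0.00119), at 1.23–1.95 CPM (median 1.75) against 0.766–1.29 CPM (median 0.985) in WT, and the ranges met. LPS raised 4 peaks and lowered 3 in WT, and raised 4 and lowered 6 in AhR-KO. The rise with the smallest p in WT, at chr5:76248909-76250070, went from 2.67–3.09 CPM (median 2.85) to 6.51–8.56 CPM (median 7.25) (1.37 ± 0.11, adjusted p = 7.73e-14) and in AhR-KO from 1.78–2.68 CPM (median 2.35) to 4.76–5.97 CPM (median 5.10) (1.201 ± 0.11, adjusted p = 3.32e-12). The genotypes did not overlap with LPS, by less than 1.5-fold (-0.51 ± 0.09, adjusted p = 3.64e-05). None of the 20 peaks had an interaction DAR (7 with an unadjusted p under 0.05, 0 by DESeq2, 1 by limma).

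Npas2 (chr1:39193731-39363236, plus strand) encodes the class I factor that can stand in for CLOCK. Its promoter was weakly open, yet was the 1 promoter of the set that met the definition of a DAR, falling with LPS in AhR-KO from 7.75–10.8 CPM (median 9.12) to 4.26–6.61 CPM (median 4.96) (-0.84 ± 0.12, adjusted p = 1.63e-07), without overlap. In WT it went from 4.82–8.26 CPM (median 6.01) to 3.12–5.40 CPM (median 4.81) (-0.41 ± 0.13, adjusted p = 0.00508), and the genotype value without LPS was 0.58 ± 0.12, adjusted p = 2.36e-04, short of 1.5-fold. By genotype, 5 of 24 tested peaks were lower and 3 higher in unstimulated AhR-KO cells. In LPS cells these counts were 4 and 3, with 4 lower and 2 higher in both treatments. The intron interval chr1:39204965-39205928, 11.2 kb into the gene, opened with LPS in WT: it went from 0.698–1.52 CPM (median 1.37) to 1.69–5.51 CPM (median 3.21) (1.44 ± 0.23, adjusted p = 2.10e-06). In AhR-KO it lay at 0.325–0.869 CPM (median 0.675) without and 0.611–0.993 CPM (median 0.769) with LPS (0.21 ± 0.30, adjusted p = 0.543). With LPS the genotypes did not overlap (-2.18 ± 0.24, adjusted p = 6.85e-09), while the WT LPS libraries were themselves widely spread. The genotype value without LPS (-0.95 ± 0.29, adjusted p = 0.00867) missed the adjusted p with limma (-0.84, adjusted p = 0.0601), as did the interaction (-1.23 ± 0.38, adjusted p = 0.0267; limma -1.24, adjusted p = 0.0657). The interaction was also lost without AhR-KO unstimulated replicate 4 (-1.14, adjusted p = 0.0531 with edgeR) or 5 (-1.16, adjusted p = 0.0514 with edgeR). A second intron interval, chr1:39286531-39286915, was lower in AhR-KO without LPS, at 1.97–2.74 CPM (median 2.39) against 3.61–5.16 CPM (median 4.99) in WT (-1.04 ± 0.13, adjusted p = 2.45e-08), but with LPS the genotypes overlapped, at 4.56–6.46 CPM (median 5.66) and 5.12–7.09 CPM (median 6.56). The interaction was 0.87 ± 0.17, adjusted p = 4.07e-04. The smallest p of genotype without LPS belonged to chr1:39381072-39381370, which lies 17.8 kb beyond Npas2 inside the body of Tbc1d8 and cannot be assigned to Npas2. It lay at 0.698–2.31 CPM (median 1.32) in WT and 0.0424–0.270 CPM (median 0.157) in AhR-KO unstimulated libraries (-3.31 ± 0.34, adjusted p = 7.14e-10). With LPS it lay at 0.230–0.509 CPM (median 0.304) and 0.0364–0.238 CPM (median 0.129), with the ranges in contact (-1.29 ± 0.39, adjusted p = 0.00711). It is the 1 interval not given to Arntl that had the 3 calls described there, and its WT unstimulated libraries lay above all others. With LPS, 8 peaks rose and 5 fell in WT and 7 rose and 4 fell in AhR-KO. The intron interval chr1:39313389-39314168 fell in both, from 10.6–12.3 CPM (median 11.5) to 5.90–6.94 CPM (median 6.23) in WT (-0.87 ± 0.09, adjusted p = 1.31e-10) and from 13.6–17.1 CPM (median 15.7) to 6.14–9.26 CPM (median 7.33) in AhR-KO (-1.01 ± 0.09, adjusted p = 9.40e-13). The intron interval chr1:39281010-39283640 rose in AhR-KO from 12.6–15.8 CPM (median 14.1) to 25.5–30.5 CPM (median 28.6) (1.03 ± 0.06, adjusted p = 1.03e-16) and in WT by 0.55, under the threshold.

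**Figure D4:**
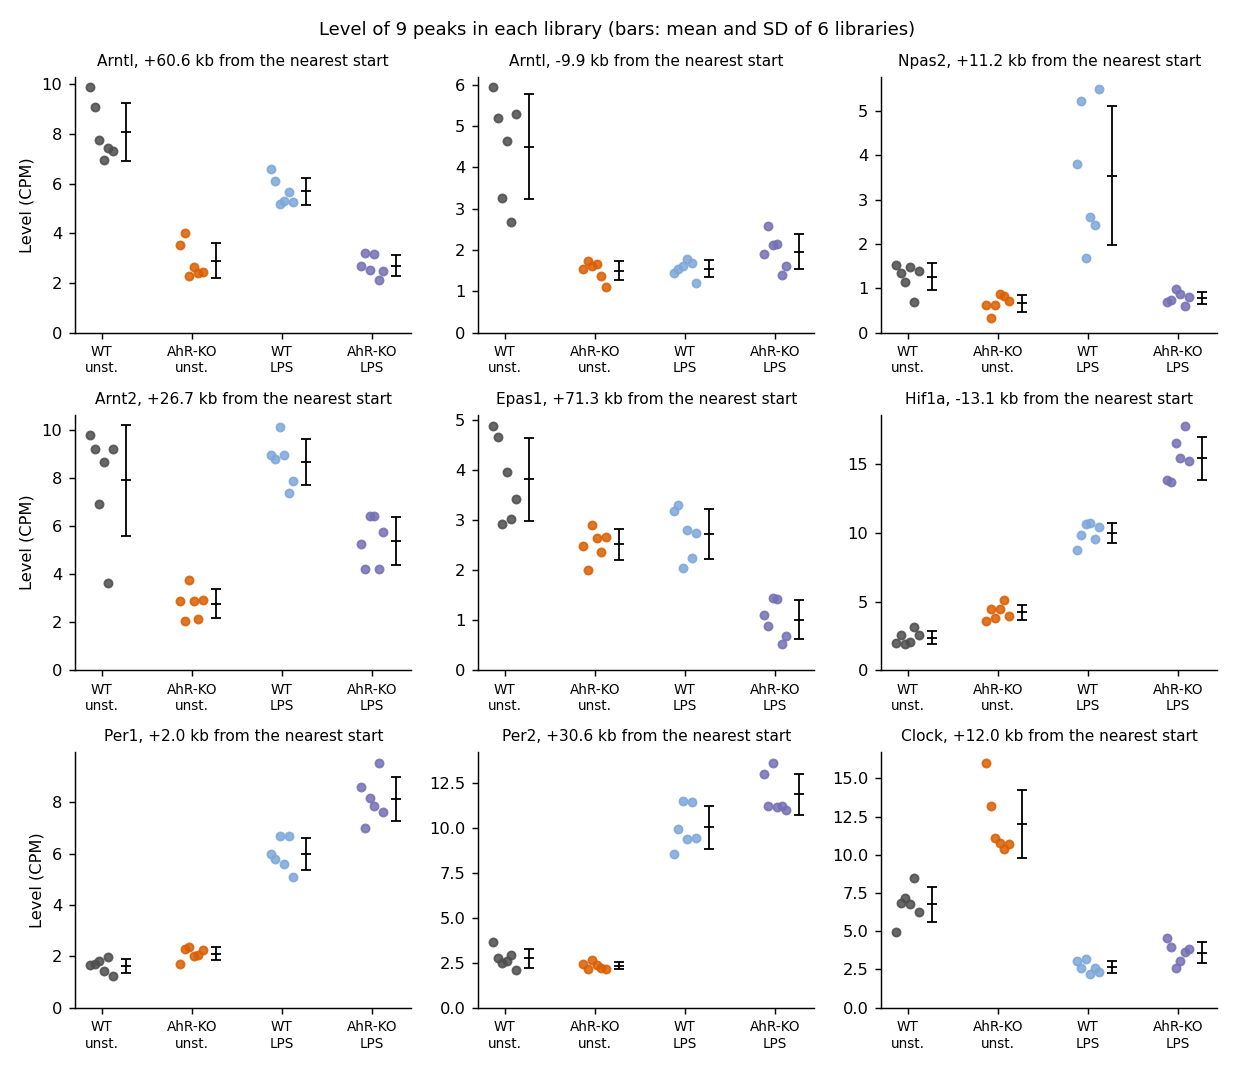
Level in CPM (y axis) of 9 intervals in each of the 24 libraries, with the mean and SD of the 6 libraries of a group as a bar; titles give the distance of the interval's middle from the nearest annotated start of the gene. In the first panel all AhR-KO libraries lie at or below 4.003 CPM and all WT libraries at or above 5.20 CPM, and in the second WT unstimulated libraries lie above all others.

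Per1 (chr11:69095217-69109960, plus strand), the repressor most readily induced by outside signals, had 10 peaks, of which 0 were DARs between genotypes, without LPS (6 with an unadjusted p under 0.05) or with it (4 with an unadjusted p under 0.05), and DESeq2 and limma called 0 in both. The promoter peak lay at 36.5–42.3 CPM (median 39.8) in WT and 41.4–67.0 CPM (median 53.5) in AhR-KO unstimulated libraries. The AhR-KO libraries were higher by 1.34-fold and spread more widely, with an overlap (0.43 ± 0.08, adjusted p = 8.21e-05). With LPS they lay at 34.2–45.0 CPM (median 38.7) and 37.4–47.0 CPM (median 41.1) (0.11 ± 0.08, adjusted p = 0.295). The peak over another start of Per1, chr11:69098609-69099027, lay at 13.96–16.1 CPM (median 14.7) and 12.2–16.8 CPM (median 13.3) in WT and AhR-KO unstimulated libraries, with overlapping ranges (-0.15 ± 0.08, adjusted p = 0.158). LPS changed 1 of 10 peaks in each genotype, the intron interval chr11:69102313-69102649 with the pair of TGANTCA sites. It rose from 1.24–1.98 CPM (median 1.68) to 5.08–6.69 CPM (median 5.88) in WT (1.89 ± 0.12, adjusted p = 7.64e-16) and from 1.69–2.37 CPM (median 2.15) to 6.98–9.53 CPM (median 8.01) in AhR-KO (1.95 ± 0.11, adjusted p = 1.47e-17). The treatments did not overlap, all AhR-KO LPS libraries lay above all WT LPS libraries (0.44 ± 0.10, adjusted p = 3.21e-04), and that genotype difference stayed under 1.5-fold.

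Per2 (chr1:91415982-91459324, minus strand) encodes the second PERIOD repressor. Its promoter peak lay at 41.0–47.7 CPM (median 44.7) and 42.2–49.3 CPM (median 43.8) in WT and AhR-KO unstimulated libraries and at 45.4–63.1 CPM (median 51.5) and 48.9–55.2 CPM (median 51.2) with LPS, below 1.5-fold in all comparisons. Without LPS 0 of 10 peaks were DARs by genotype (2 with an unadjusted p under 0.05, DESeq2 calling 1 and limma 0). The exon interval chr1:91437438-91438608 came closest, at 28.8–33.3 CPM (median 32.7) in AhR-KO against 17.6–23.4 CPM (median 21.4) in WT, without overlap and just under the threshold (0.58 ± 0.07, adjusted p = 3.99e-09). The smallest p with LPS was that of the intron interval chr1:91428396-91429036, which rose from 2.08–3.63 CPM (median 2.68) to 8.57–11.5 CPM (median 9.69) in WT (1.89 ± 0.11, adjusted p = 4.11e-17) and from 2.16–2.63 CPM (median 2.31) to 10.98–13.6 CPM (median 11.2) in AhR-KO (2.34 ± 0.11, adjusted p = 2.77e-20). No treated library overlapped an untreated one. The short intron interval chr1:91451807-91451957 closed instead, from 1.19–1.83 CPM (median 1.69) to 0.391–0.919 CPM (median 0.676) in WT (-1.26 ± 0.19, adjusted p = 3.48e-07) and from 1.61–2.56 CPM (median 2.08) to 0.284–0.466 CPM (median 0.362) in AhR-KO (-2.47 ± 0.20, adjusted p = 2.58e-13). The fall was larger in AhR-KO (interaction -1.21 ± 0.28, adjusted p = 0.00316), the AhR-KO LPS level was below that of WT LPS (-0.87 ± 0.23, adjusted p = 0.0019) with overlapping ranges, and MACS2 called this interval in 1 of 24 libraries. A further intron interval, chr1:91455949-91456762, fell with LPS in AhR-KO from 18.3–21.97 CPM (median 20.4) to 10.1–13.8 CPM (median 12.6) (-0.71 ± 0.08, adjusted p = 5.70e-10), while in WT it went from 15.1–19.2 CPM (median 16.8) to 13.3–18.5 CPM (median 16.003) (-0.08). Its interaction was -0.64 ± 0.11, adjusted p = 1.63e-04, and 0.58 in size without AhR-KO LPS replicate 4.

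Per3 (chr4:151003652-151044665, minus strand) encodes the third PERIOD protein, which the core clock can do without. Its promoter peak fell with LPS in both genotypes by somewhat less than 1.5-fold, from 37.2–41.8 CPM (median 39.9) to 23.3–30.2 CPM (median 27.2) in WT (-0.54 ± 0.07, adjusted p = 4.36e-08) and from 34.3–43.4 CPM (median 39.2) to 21.9–31.999 CPM (median 26.5) in AhR-KO (-0.57 ± 0.07, adjusted p = 9.22e-09), without overlap. Genotype did not move it detectably (-0.03 and -0.06). Of 13 peaks 1 was lower and 2 higher in unstimulated AhR-KO cells, and 1 of each kind was called in LPS cells. The upstream interval chr4:151052510-151052920 overlaps the body of Vamp3 and cannot be assigned to Per3. It lay at 1.41–2.08 CPM (median 1.72) in WT and 3.43–5.09 CPM (median 4.60) in AhR-KO unstimulated libraries, without overlap (1.34 ± 0.16, adjusted p = 1.49e-08). After LPS it lay at 1.84–3.68 CPM (median 2.66) and 3.38–5.01 CPM (median 4.02), which overlapped (0.60 ± 0.14, adjusted p = 6.35e-04). That value and the LPS change in WT (0.60 ± 0.16, adjusted p = 0.00145) lie close to the threshold. The first was 0.57 with the libraries of the comparison alone and was lost without any 1 of 4 LPS libraries (replicates 1 and 3 of AhR-KO, 3 and 5 of WT). The second was 0.45 with limma and was lost without WT LPS replicate 2 or 6 or WT unstimulated replicate 3 or 5. The interaction was -0.74 ± 0.21, adjusted p = 0.015. The interval chr4:151047669-151048814, 3.6 kb before the start, also overlaps Vamp3. It rose with LPS in WT from 3.37–4.59 CPM (median 3.94) to 6.63–9.88 CPM (median 7.80) (1.03 ± 0.11, adjusted p = 3.90e-10). In AhR-KO it started higher, at 4.87–6.98 CPM (median 6.42) (0.62 ± 0.12, adjusted p = 4.20e-05), and ended level with WT, at 7.34–9.84 CPM (median 7.96), with an interaction of -0.63 ± 0.15, adjusted p = 0.00434. The former value was 0.58 without AhR-KO unstimulated replicate 3 and the latter 0.57 in size without WT LPS replicate 6. In AhR-KO the exon interval chr4:151005729-151007212 had the smallest p for LPS, rising from 17.4–21.1 CPM (median 19.8) to 34.5–40.3 CPM (median 37.1) (0.93 ± 0.06, adjusted p = 7.46e-17). In WT it rose from 26.2–29.6 CPM (median 27.1) to 32.4–37.8 CPM (median 36.3) (0.37 ± 0.06, adjusted p = 3.65e-07), under the threshold. The 176-base interval chr4:151001507-151001682, downstream of the gene, opened from 0–0.396 CPM (median 0.337) to 2.05–2.67 CPM (median 2.48) in WT (3.02 ± 0.24, adjusted p = 1.36e-13) and from 0.118–0.351 CPM (median 0.199) to 1.31–2.39 CPM (median 1.72) in AhR-KO (2.97 ± 0.25, adjusted p = 4.53e-13). MACS2 called it in 1 of 24 libraries. It lies over the bodies of Uts2 and Camta1 and cannot be assigned to Per3.

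Levels were also summed over all peaks given to a gene, those over neighbouring genes included, which weights the most open ones. The Arnt sum ran from 77.0 to 87.8 CPM in WT and 97.0 to 130 CPM in AhR-KO unstimulated libraries, without overlap. With LPS it ran from 76.6 to 91.4 and 79.0 to 102 CPM, with overlap. It takes in the peak over the Ctsk start, itself higher in AhR-KO without LPS, which cannot be assigned to Arnt. The Arntl sum went the other way without LPS, from 167 to 177 CPM in WT and 143 to 160 CPM in AhR-KO. With LPS it ran from 142 to 150 CPM in WT and 140 to 174 CPM in AhR-KO, so all WT LPS libraries lay below all WT unstimulated ones. The Per1 sum, which takes in peaks over the starts of Vamp2 and Aloxe3, ran from 115 to 128 CPM in WT and 133 to 172 CPM in AhR-KO unstimulated libraries. The Hif1a sum ran from 167 to 185 CPM in WT and 185 to 219 CPM in AhR-KO LPS libraries, and the Arnt2 sum from 89.9 to 112 CPM in WT unstimulated and 142 to 195 CPM in WT LPS libraries. The most open interval per kb outside a promoter was no DAR at Arnt, Epas1, Npas2 or Per3 in any comparison; at Npas2 it lies over the start of Rpl31 and at Per3 over that of Vamp3, and these ran from 26.4 to 34.7 CPM and from 37.0 to 51.8 CPM over the 24 libraries.

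Set side by side, the genotype calls without and with LPS coincided in part. Of the 185 peaks 11 were lower in AhR-KO in both treatments (4 of Npas2, 3 of Arntl, 2 of Arnt2, and 1 each of Epas1 and Per3), 8 were higher in both (3 of Hif1a, 2 of Npas2, and 1 each of Arnt2, Arntl and Per3), and no peak was called in opposite directions. A further 20 were called without LPS only and 17 with LPS only, which does not by itself show that the genotype effect differed. The shares called in both, 5.95% lower and 4.32% higher, compare with 6.95% and 5.08% of all tested peaks. In the LPS comparisons 44 peaks were higher in both genotypes and 17 lower in both, 22 called in WT only and 27 in AhR-KO only. LPS DARs made up 47.0% of all tested peaks in WT and 48.8% in AhR-KO. No share of all peaks is given for these LPS overlaps or for the 20 and 17 above, so they are not read as a trait of these genes. A combination that occurred in 8 peaks, higher in AhR-KO without LPS and lower with LPS in AhR-KO, fell on Arnt and Clock (3 each) and on Arnt2 and Npas2 (1 each), or 4.32% beside 3.35% of all peaks. Of these, the Arnt peaks from 95497330 and 95504466 overlap Ctsk, and the Clock peaks from 76189555 and 76202248 overlap Tmem165. Another combination, higher in AhR-KO with LPS and higher with LPS in AhR-KO, covered 14 peaks, 5 each of Arnt2 and Hif1a, 2 of Arntl and 1 each of Clock and Per2, or 7.57% beside 8.35%. Within each combination the comparisons share a group of libraries.

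Of a list of 45 other genes of these pathways, 41 had a tested promoter peak: 10 of 12 bHLH-PAS relatives and coactivators, 16 of 17 clock genes, and 15 of 16 genes of oxygen sensing and hypoxia. Between genotypes 4 of the 41 were DARs without LPS and 4 with it, 9.76% in each, beside 6.22% and 6.99% of peaks over a coding start. Those without LPS include Ahr, the targeted gene, and both sets include Ahrr, an AhR target. The shares are therefore not read as a trait of these pathways. For LPS against unstimulated 2 of 41 were DARs in each genotype (4.88%, beside 10.4% in WT and 15.9% in AhR-KO), and 1 for the interaction (2.44%, beside 3.60%). Among the relatives, 3 were lower in AhR-KO without LPS: Ahr itself, Ahrr and Hif3a. Ahrr, the AhR repressor and a classical AhR target, ran from 9.52 to 13.3 CPM in WT and 2.60 to 4.13 CPM in AhR-KO unstimulated libraries (-1.73 ± 0.11, adjusted p = 6.91e-15), and from 10.1 to 12.8 CPM and 2.04 to 2.51 CPM with LPS (-2.27 ± 0.11, adjusted p = 5.72e-18). Hif3a, whose product restrains the other HIFs, had 7.35 ± 0.789 and 4.80 ± 0.602 CPM without LPS (-0.62 ± 0.10, adjusted p = 4.04e-06) and a higher interaction (0.75 ± 0.14, adjusted p = 0.000273). With LPS Npas3 was lower (-0.60 ± 0.13, adjusted p = 0.000213) and Sim1 higher (0.73 ± 0.13, adjusted p = 2.13e-05) in AhR-KO. None of the 16 clock promoters was a genotype DAR, without LPS (12 with an unadjusted p under 0.05, 8 with an adjusted p that passed) or with it (5 and 4), and DESeq2 and limma called 0 in both. Of the hypoxia genes, the glycolytic enzyme gene Pgk1, which lies on the X chromosome, was higher in AhR-KO, with 49.2 ± 1.18 and 89.1 ± 2.61 CPM in WT and AhR-KO unstimulated libraries (0.86 ± 0.04, adjusted p = 1.03e-16) and 45.1 ± 1.94 and 82.0 ± 3.79 CPM with LPS (0.86 ± 0.04, adjusted p = 6.40e-17). It was the 1 of 15 such promoters called between genotypes, and the source of its extra counts was not tested. LPS lowered the promoters of Bhlhe41 and Bnip3 in WT and those of Bhlhe41 and Csnk1e in AhR-KO.

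Motif matches were counted in the middle 300 bases of the 157 tested member peaks that were long enough, on both strands. TNGCGTG was found in 8 of 157 (5.10%), beside 3.09% of 139343 such windows over all tested peaks, CACGTG in 5 (3.19% beside 4.31%), ACGTG in 27 (17.2% beside 14.6%), TGANTCA in 28 (17.8% beside 17.4%), and the NF-κB motif in 2 (1.27% beside 1.89%). Of the 13 windows lower in AhR-KO without LPS, 1, the Arntl window shown above, held TNGCGTG and 4 held ACGTG, against 2.99% and 13.5% of all windows lower in that comparison. TGANTCA was present in 16 of 45 windows that rose with LPS in WT (35.6%, beside 33.6% of all such windows) and in 1 of 21 that fell (4.76%, beside 7.70%). In the RefSeq table, 10 promoter windows lay in a promoter peak of these genes, those of Arnt, Arnt2, Hif1a, Arntl, Clock, Npas2 and Per3, and in their 250 bases before the start CACGTG occurred once, in Hif1a, ACGTG in Hif1a and Npas2, and TGACGTCA in Arnt. Over all 32851 RefSeq promoter windows the shares were 6.02%, 16.6% and 1.55%. A Per1 window at chr11:69098699-69098948, before another start and outside the promoter peak, also held a CACGTG. A match describes these letters and is no evidence of binding.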

How the data were processed

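Reads were processed by the authors with the nf-core atacseq pipeline on mm10: trimming of adapters, alignment and filtering, broad peaks per library with MACS2, and a consensus peak set over all libraries. The deposited counts are fragments per consensus peak and library (featureCounts 2.0.1, minimum overlap fraction 0.2), not normalized, with bcl2fastq 2.20.0 named in the submitters' notes. The deposited broad peak lists give −log10 q values and were used only to count the libraries in which an interval was called.

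Counts of 24 libraries (8.54 to 34.6 M) were fitted in edgeR 4.0.16 (R 4.3.3): low peaks were removed by group, 174193 peaks remained, TMM factors ran from 0.976 to 1.04, and quasi-likelihood tests were made for genotype within each treatment, LPS within each genotype and the interaction, with Benjamini-Hochberg adjustment over all tested peaks. Errors after ± are SD for CPM and SE for log2 fold changes, n = 6. Named for each gene were its promoter peak, the DAR with the smallest p in each comparison and the most open other peak. The members and lists were chosen with earlier results of these data known. Alternatives were RLE size factors, limma 3.58.1 with voom and quantile normalization, DESeq2 1.42.0, no filter, other thresholds and distances, a block on the replicate or title number, and leaving out each library. The fit was tested on simulated data. Peaks were matched to genes with bedtools 2.31.1 and Python 3.11.15 (pandas 2.3.3, matplotlib 3.10.9).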

Additional observations from a re-analysis of the deposited data

Results flagged for a closer look

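In 14 of the 49 named intervals the genotype effect with LPS differed from that without it, as an interaction past both thresholds (edgeR quasi-likelihood tests, Benjamini-Hochberg adjusted). Intervals were named partly for the smallest interaction p of their gene, so this count was set by the choice. Of all tested peaks 10.4% had such an interaction. Those from 95497330, 39381072, 151052510 and 151047669 overlap neighbouring genes, and some calls were lost without single libraries, as given above. The interaction was positive, the AhR-KO level being higher relative to WT with LPS than without, at the Arntl peak from 113224435 (1.95), the Npas2 peaks from 39381072 (2.02) and 39286531 (0.87), the Hif1a peak from 73931067 (0.98) and the Arnt2 peak from 84340915 (0.84). It was negative at the Npas2 peak from 39204965 (-1.23), the Per2 peaks from 91451807 (-1.21) and 91455949 (-0.64), the Arnt2 peak from 84335746 (-0.91), the Epas1 peak from 86824469 (-0.82), the Per3 peaks from 151052510 (-0.74) and 151047669 (-0.63) and the Arnt peaks from 95515407 (-0.73) and 95497330 (-0.61).

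In 7 of 196 sets of 6 libraries the highest or lowest library stood far from the other 5, where chance flags about 1 set in 20. WT unstimulated replicate 5, the shallowest library, was among them at the Arntl promoter, with 89.7 CPM against 80.7 to 83.9 CPM in the others, and at the Npas2 peak from 39286531, with 3.61 CPM against 4.75 to 5.16 CPM. AhR-KO unstimulated replicate 3 had 0.790 CPM at the Arnt2 promoter, against 1.36 to 1.61 CPM, replicate 5 had 1.60 CPM at the Arntl peak from 113287039, against 2.01 to 2.24 CPM, and replicate 2 had 16.8 CPM at the Per1 peak from 69098609, against 12.2 to 13.8 CPM. WT LPS replicate 3 had 6.69 CPM at the Arnt2 peak from 84335746, against 3.60 to 4.40 CPM, and AhR-KO LPS replicate 3 had 9.84 CPM at the Per3 peak from 151047669, against 7.34 to 8.18 CPM.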

How the results depend on the processing

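Of 82 named results past both thresholds, 70 stayed past them under every alternative that keeps the fold threshold and without every single library, 6 did not under an alternative and 11 did not without some library; none reversed. Of 163 others, 7 were called under an alternative and 6 by an omission. The number of DARs depended on the fold threshold: with none it was 79 for genotype without LPS and 74 with LPS, and with at least 2-fold it was 17 and 10, 47 and 52 for LPS in WT and in AhR-KO, and 8 for the interaction. Over gene bodies alone, 23 genotype DARs with LPS were left, fewer peaks being tested. RLE size factors and DESeq2 each gave 2 interaction DARs among the promoters of the pathway list, in place of 1; the cause was not tested. Leaving out 1 library gave 36 to 44, 33 to 40, 79 to 85, 81 to 88 and 20 to 26 DARs in the 5 comparisons. With a replicate block the 5 counts were 39, 35, 81, 88 and 24. Libraries of 1 number deviated together weakly, with every r positive (0.037 to 0.290 between WT treatments, 0.0038 to 0.171 between AhR-KO treatments). Against the other numbers every mean r was negative, between -0.077 and -2.4e-04 for WT libraries and between -0.032 and -0.0041 for AhR-KO libraries. Of 6 numbers, 4 and 3 correlated best with their own. Pairing by number is therefore not excluded. The main fit left the libraries unpaired, and whether a number marks a shared animal was not tested. Intervals of about 1 CPM or less, such as the Arnt2 promoter, rest on few counts.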
